A study of Mus musculus with 9 samples.

Results

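The Zfp genes of the mouse carry the name prefix given to zinc finger proteins, and 242 of the 394 protein-coding genes named Zfp followed by a number were studied here. They were selected on measured values, as those with a mean of at least 5 CPM (counts scaled to a common library total) over the 3 Control libraries. Of the 152 that fell short, 84 lay below 1 CPM and 32 had no count in any Control library. The genes just inside the limit were Zfp979 at 5.03 CPM, Zfp729b at 5.15 CPM and Zfp873 at 5.16 CPM, and those just outside it were Zfp94 at 4.7 CPM, Zfp235 at 4.59 CPM and Zfp296 at 4.56 CPM. The Control level is therefore a condition of membership and not a result.

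The cells were 4T1, a line from a mammary carcinoma of the mouse, and their RNA was sequenced after 24 h of treatment. Au_TCPP cells received Au/Cu-TCPP(Fe)-PEG, a material that the labels describe as consuming glutathione and acting like a glucose oxidase. Cu_TCPP cells received Cu-TCPP(Fe)-PEG, described as consuming glutathione alone, and Control cells stood in normal culture; all were kept in high-glucose DMEM with 10% fetal bovine serum, and no source used here gives a dose. Each group had 3 libraries. The labels do not name separate cultures, so every p-value reflects only the spread between these libraries, which may be technical.

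Most proteins of this family hold rows of C2H2 zinc fingers, loops, often DNA-binding, in which 2 cysteines and 2 histidines grip a zinc ion. Many also start with a KRAB domain, which binds the corepressor TRIM28 and brings histone methylation to the bound site; these genes arose in clusters by local duplication and are best known for silencing transposable elements. A few members carry CCCH fingers instead, bind AU-rich stretches in messenger RNA and recruit the CCR4-NOT complex, which removes the poly(A) tail.

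A search of the annotated proteins gave a KRAB match in 127 of the 242 members and no match in the other 115. The search profile was built from clear KRAB stretches of the Zfp proteins themselves, so divergent KRAB domains may have been missed. The C2H2 pattern occurred at least once in 235 members, with a median of 12 fingers in those with a KRAB match and 7 in those without, and at most 37. Chromosome 7 held 62 members and chromosome 17 held 34. Another Zfp gene lay within 100 kb of 99 of the 127 KRAB members, against 31 of the 115 without a KRAB match. Sequence shared with other genes touched the KRAB members most: more than 20% of the 50-base words recurred elsewhere in the transcriptome for 23 members, 21 of them with a KRAB match, and counts of such genes are uncertain.

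Total counts lay between 15477324 and 17494776 per library. All 6 epithelial markers (Epcam, Cdh1, Krt8, Krt18, Krt7 and Krt19) were at 5 CPM or more in every library, and their sum was 4420 to 5320 CPM in Au_TCPP, 2850 to 3190 CPM in Cu_TCPP and 2930 to 3180 CPM in Control, while the summed fibroblast markers reached at most 2.72 CPM and the endothelial ones at most 0.334 CPM. Of the 5 immune markers Cd68 alone was at 5 CPM or more in every library, and their sum was 53.2 to 75.1 CPM in Au_TCPP, 9.12 to 13.5 CPM in Cu_TCPP and 25.2 to 29.1 CPM in Control; the part of either sum in the results was not tested. Au_TCPP replicate 2 had 2.37% mitochondrial counts, against 1.09% to 1.47% in the other 8 libraries.

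Promoter sequences are shown for Zfp36l1, the messenger RNA binder whose level moved in opposite directions with the 2 materials. Others are shown for 4 KRAB genes of a chromosome 17 cluster. Of its 16 members 10 were higher in Au_TCPP than in Cu_TCPP, against 34.6% of all genes tested. The sequences come from RefSeq (GRCm38.p6), which gave a promoter for 201 of the 242 members, and are written 5′ to 3′ on the strand stated with them. Capitals mark letters of the searched motifs and, in Zfp948 and Zfp945, the longest stretch that those windows share.
Zfp36l1: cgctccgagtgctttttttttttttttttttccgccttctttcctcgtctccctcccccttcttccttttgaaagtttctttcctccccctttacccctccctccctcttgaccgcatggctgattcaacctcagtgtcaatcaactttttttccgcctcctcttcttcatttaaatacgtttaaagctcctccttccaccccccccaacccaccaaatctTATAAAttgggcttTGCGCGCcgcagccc
Zfp948: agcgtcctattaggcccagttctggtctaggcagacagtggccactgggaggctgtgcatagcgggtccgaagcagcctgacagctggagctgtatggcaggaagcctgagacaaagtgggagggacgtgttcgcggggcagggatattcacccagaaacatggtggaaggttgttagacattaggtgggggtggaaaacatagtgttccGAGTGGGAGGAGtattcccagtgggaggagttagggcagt
Zfp945: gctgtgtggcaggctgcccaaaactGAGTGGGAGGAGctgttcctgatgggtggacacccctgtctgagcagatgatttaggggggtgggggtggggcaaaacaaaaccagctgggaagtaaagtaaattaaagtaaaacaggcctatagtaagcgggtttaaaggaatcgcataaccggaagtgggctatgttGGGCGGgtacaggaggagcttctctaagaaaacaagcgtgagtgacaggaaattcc
Zfp942 and Zfp943: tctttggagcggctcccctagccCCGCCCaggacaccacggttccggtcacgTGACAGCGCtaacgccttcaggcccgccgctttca
The first lies at chr12:80113014-80113263 on the minus strand, the next at chr17:21566728-21566977 on the plus strand and the third at chr17:22867135-22867384 on the minus strand, each being the 250 bases before the start that RefSeq gives; GENCODE M21 starts Zfp948 a further 30 bases downstream. The last, chr17:21962465-21962551 on the plus strand, is the 87 bases between the GENCODE starts of Zfp942 and Zfp943, which are transcribed away from each other.

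The Zfp36l1 window held a TATA box (TATAAA), found in 12.4% of all 32851 promoter windows and in 6.43% of the members' 249 windows, and a metal response element core (TGCGCNC), found in 12.5% and 16.1%. The stretch between Zfp942 and Zfp943 held a GC box (GGGCGG), present in 32.7% of all windows and 45% of the members', and an antioxidant response element core (TGACNNNGC), present in 10.2% and 14.1%. Zfp945 also held a GC box. The other motifs searched were the other metal response element core (TGCACNC, 10.4% of all windows and 11.6% of the members'), the AP-1 site (TGACTCA, 4.46% and 3.61%) and the heat shock element core (GAANNTTC, 6.69% and 8.03%). All were searched on both strands; motifs that overlapped were counted separately. The 12-base stretch GAGTGGGAGGAG, found by comparing the windows of Zfp948 and Zfp945 with each other, occurred in 29 of all windows (0.0883%) and, among the members, also in Zfp983 of the same cluster. These matches are descriptions and say nothing of which factors bind.

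Levels across the family were set side by side as FPKM, the authors' length-scaled unit. In Control the members had a median of 3.24 FPKM, with 2.28 FPKM for KRAB members and 4.7 FPKM for the others, against 8.73 FPKM for the 9925 protein-coding genes that met the same 5 CPM limit. The highest were Zfp36l2, an AU-rich messenger RNA binder, at 105 ± 4.6 FPKM, Zfp598, a ubiquitin ligase that marks collided ribosomes, at 37.8 ± 0.68 FPKM, Zfp706 at 32.7 ± 0.565 FPKM, Zfp207, a spindle protein, at 29.5 ± 1.99 FPKM and Zfp106, an RNA-binding protein, at 24.5 ± 0.449 FPKM (SD, n = 3 Control libraries each). The single Control libraries kept this order, with 101 to 110 FPKM for Zfp36l2, 37.1 to 38.4 for Zfp598, 32.1 to 33.1 for Zfp706, 27.7 to 31.6 for Zfp207 and 24.1 to 25 FPKM for Zfp106, so no neighbours overlapped. The lowest member stood at 0.512 FPKM.

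The members together made up a smaller share of all counts in Au_TCPP. Their share was 0.592%, 0.604% and 0.593% in the Au_TCPP libraries, 0.82%, 0.784% and 0.794% in the Cu_TCPP libraries, and 0.766%, 0.743% and 0.722% in the Control libraries. Every Au_TCPP library lay below every other library. After scaling by TMM factors, which lay between 0.7929 and 0.8884 in Au_TCPP, 1.068 and 1.088 in Cu_TCPP, and 1.111 and 1.118 in Control, the members summed to 7172 ± 346 CPM in Au_TCPP, 7416 ± 133 CPM in Cu_TCPP and 6669 ± 175 CPM in Control (SD, n = 3 each). The lower share in Au_TCPP therefore depends on the scaling, and with library totals alone the median log2 fold change of all 13915 genes tested in Au_TCPP against Cu_TCPP was -0.33, against 0.04 with TMM. In such bulk samples, fewer cells of a kind and less RNA per cell cannot be told apart.

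Au_TCPP was first set against Cu_TCPP, a comparison whose libraries the choice of members did not use. All 242 members passed the filter on low counts, and a gene was called where edgeR's quasi-likelihood test gave a Benjamini-Hochberg adjusted p under 0.05 over all genes tested. Of the members 80 were higher and 89 lower in Au_TCPP, that is 33.1% and 36.8%, where the background over all genes tested was 34.6% and 31.3%. At a log2 fold change of at least 1, 25 members were higher and 32 lower, against backgrounds of 14.8% and 12%, and the members' shares were 10.3% and 13.2%; among the 9925 protein-coding genes at 5 CPM or more in Control they were 10.3% and 11.7%. The members' median log2 fold change was -0.08, against 0.04 for all genes tested and -0.04 for protein-coding genes at 5 CPM or more in Control. Without Au_TCPP replicate 2 the counts were 81 higher and 98 lower. The family's shares thus lay near those of expressed protein-coding genes, and its members differed widely from each other.

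Among the CCCH proteins that bind AU-rich messenger RNA, Zfp36, also called tristetraprolin, stood at 211, 140 and 222 CPM in the Au_TCPP libraries, 21.9, 21.3 and 26.8 CPM in the Cu_TCPP libraries, and 16.5, 17.2 and 18.9 CPM in the Control libraries. All Au_TCPP values lay far above the rest, with replicate 2 the lowest of them. The log2 fold change was 3.04 ± 0.16 (SE) against Cu_TCPP (edgeR adjusted p = 2.1e-09), and 3.18 without that library.

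Zfp36l1, a paralogue with the same activity, stood at 73.8, 76.9 and 68.3 CPM in Au_TCPP, 9.35, 11 and 10 CPM in Cu_TCPP, and 18.2, 17.7 and 17.6 CPM in Control. The 3 groups did not overlap, and Cu_TCPP was the lowest. The log2 fold change was 2.85 ± 0.1 in Au_TCPP against Cu_TCPP (edgeR adjusted p = 2.3e-11) and, as a description, -0.81 ± 0.1 in Cu_TCPP against Control, whose levels chose the members. Its value is uncertain, since 55.9% of its exonic bases overlap Gm26669 on the opposite strand and no source used here says whether counting used strand.

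The third paralogue, Zfp36l2, ran the other way, with 358, 219 and 374 CPM in Au_TCPP, 804, 898 and 859 CPM in Cu_TCPP, and 397, 364 and 369 CPM in Control. Cu_TCPP alone stood apart, while the Au_TCPP and Control libraries overlapped after TMM scaling. With library totals alone Zfp36l2 was called lower in Au_TCPP against Control. The log2 fold change was -1.43 ± 0.16 in Au_TCPP against Cu_TCPP (edgeR adjusted p = 2.2e-06), -1.26 without Au_TCPP replicate 2, and 1.18 ± 0.15 in Cu_TCPP against Control. Of the 10 tested subunits of CCR4-NOT, the deadenylase these proteins recruit, 1 was higher and 5 lower in Au_TCPP against Cu_TCPP, where 34.6% and 31.3% of all genes tested were; library totals alone gave 0 and 8, and offsets for gene length 2 and 4. Cnot7, a catalytic subunit, averaged 105 ± 5.48 CPM in Au_TCPP and 70.6 ± 6.07 CPM in Cu_TCPP, and Cnot1, the scaffold, 258 ± 22.6 CPM in Au_TCPP and 419 ± 16 CPM in Cu_TCPP (SD, n = 3 each).

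**Figure D1:**
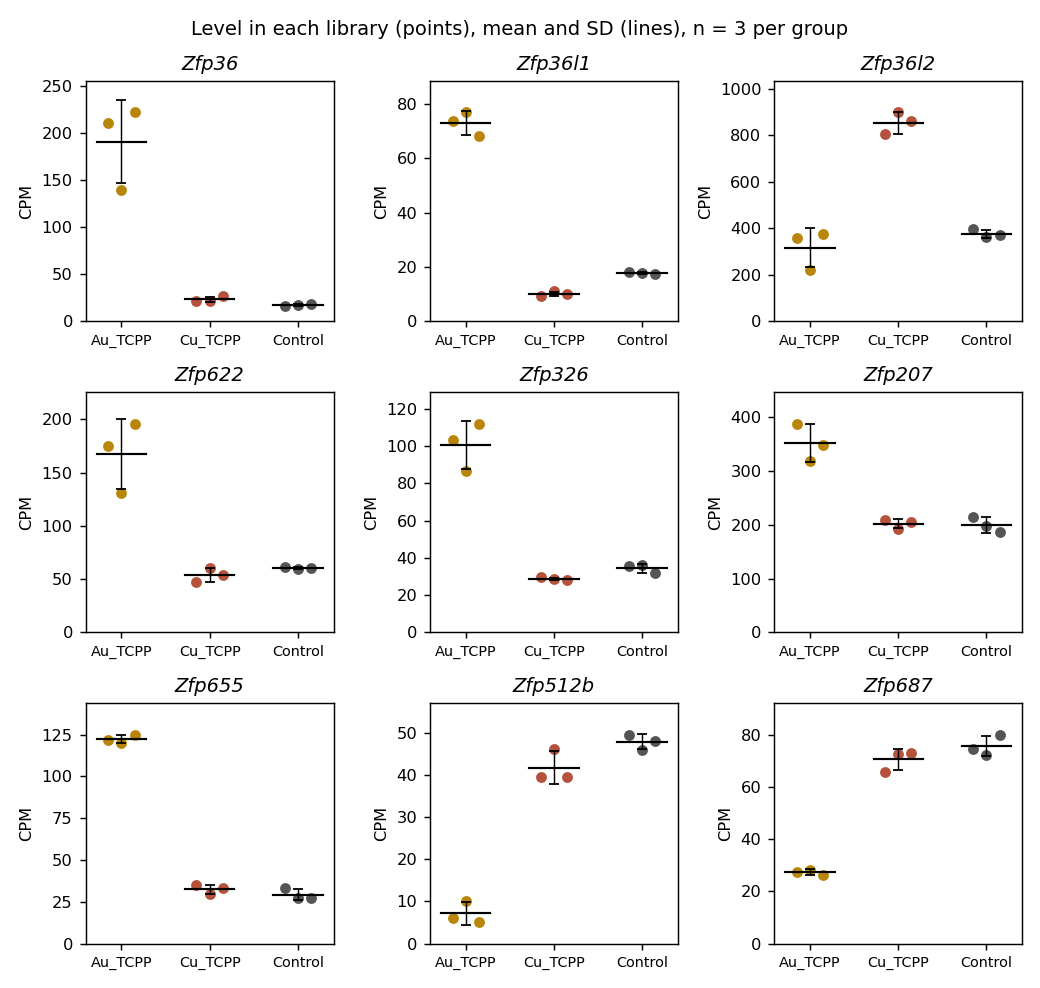
CPM (TMM-scaled, linear axes from 0) of 9 members in each library (points), with the group mean (horizontal line) and SD (error bar), n = 3 libraries per group. Zfp36 and Zfp36l1 are highest in all 3 Au_TCPP libraries, while Zfp36l2 is highest in all 3 Cu_TCPP libraries, between 804 and 898 CPM.

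Members that act on ribosomes moved in opposite directions. Zfp622, which joins the large ribosomal subunit late in its assembly, stood at 175, 131 and 196 CPM in Au_TCPP, 47.6, 60.6 and 53.8 CPM in Cu_TCPP, and 61.1, 59.7 and 60.7 CPM in Control. Every Au_TCPP library was above all others, with a log2 fold change of 1.63 ± 0.13 against Cu_TCPP (edgeR adjusted p = 5.1e-08). Zfp598 had 73.6, 70.5 and 83.2 CPM in Au_TCPP, 119, 144 and 124 CPM in Cu_TCPP, and 129, 127 and 123 CPM in Control. Here the Au_TCPP libraries were the lowest without overlap, at -0.77 ± 0.09 against Cu_TCPP (edgeR adjusted p = 4.1e-06).

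Of the 7 members that bind RNA or act in splicing and on the spindle, 2 rose and 2 fell in Au_TCPP against Cu_TCPP, against backgrounds of 34.6% and 31.3%; library totals alone gave 2 and 5, and offsets for gene length 3 and 3. Zfp326, part of a complex that couples splicing to transcript elongation, stood at 103, 86.3 and 112 CPM in Au_TCPP, 29.5, 28.8 and 28.3 CPM in Cu_TCPP, and 35.6, 36.1 and 31.8 CPM in Control. Zfp207, which aids attachment of chromosomes to the spindle, stood at 388, 319 and 349 CPM in Au_TCPP, 209, 192 and 205 CPM in Cu_TCPP, and 215, 198 and 186 CPM in Control. Both were higher in every Au_TCPP library, by 1.80 ± 0.1 and 0.80 ± 0.09 on the log2 scale. Zfp106 stood at 131, 126 and 138 CPM in Au_TCPP, 332, 327 and 336 CPM in Cu_TCPP, and 266, 259 and 254 CPM in Control, so the 3 groups did not overlap; 26.1% of its exonic bases overlap Gm26899 on the opposite strand. Zfp346, a binder of double-stranded RNA, was lower by a log2 fold change of -0.42 ± 0.1.

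The promoter and chromatin regulators leaned towards lower levels in Au_TCPP: of 20 members listed, 12 fell and 3 rose against Cu_TCPP, with a median log2 fold change of -0.34, where 31.3% of all genes tested and 37.4% of protein-coding genes at 5 CPM or more fell. These are long genes, with a median of 7614 nt; with offsets for gene length 10 fell and 6 rose, at a median of -0.17, and with library totals alone 17 fell and 1 rose. Zfp687, which forms a complex with Zfp592 and Zfp532, stood at 27.6, 28.4 and 26.2 CPM in Au_TCPP, 65.8, 72.8 and 73.2 CPM in Cu_TCPP, and 74.7, 72.4 and 80.1 CPM in Control, and its partners fell by 0.32 and 0.89 on the log2 scale; with offsets for gene length Zfp592 was at -0.10 and not called. Zfp609, which acts with the cohesin loader, stood at 33.8, 52.7 and 52.2 CPM in Au_TCPP, 120, 129 and 127 CPM in Cu_TCPP, and 111, 117 and 120 CPM in Control. In both genes the Au_TCPP libraries lay far below the rest and those of the other groups lay close together. Zfp532 and Zfp335 overlap other genes in 28.7% and 28.3% of their exonic bases.

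Zfp462, a repressor of lineage genes, Zfp746, a repressor known from neurons, and Zfp335 fell by 1.17, 1.07 and 0.78 on the log2 scale. Those that rose were Zfp703, an oncogene of luminal breast cancer, with 52.1, 37.3 and 48.8 CPM in Au_TCPP, 15.5, 21.3 and 19.5 CPM in Cu_TCPP, and 25, 24.9 and 26.8 CPM in Control, Zfp263 at 0.55 ± 0.13 and Zfp131 at 0.48 ± 0.1; with library totals alone these last were at 0.17 and 0.10 and not called. Zfp703 was thus highest in Au_TCPP and lowest in Cu_TCPP without overlap. Zfp148 and Zfp281, which bind GC-rich promoters, did not pass the test, at -0.13 ± 0.1 and -0.18 ± 0.13. Zfp148 was called at -0.29 without Cu_TCPP replicate 2 and stood at 0.21, not called, with offsets for gene length, and Zfp281 was called at -0.33 without Au_TCPP replicate 3. With library totals alone both were called, at -0.51 and -0.56.

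**Figure D2:**
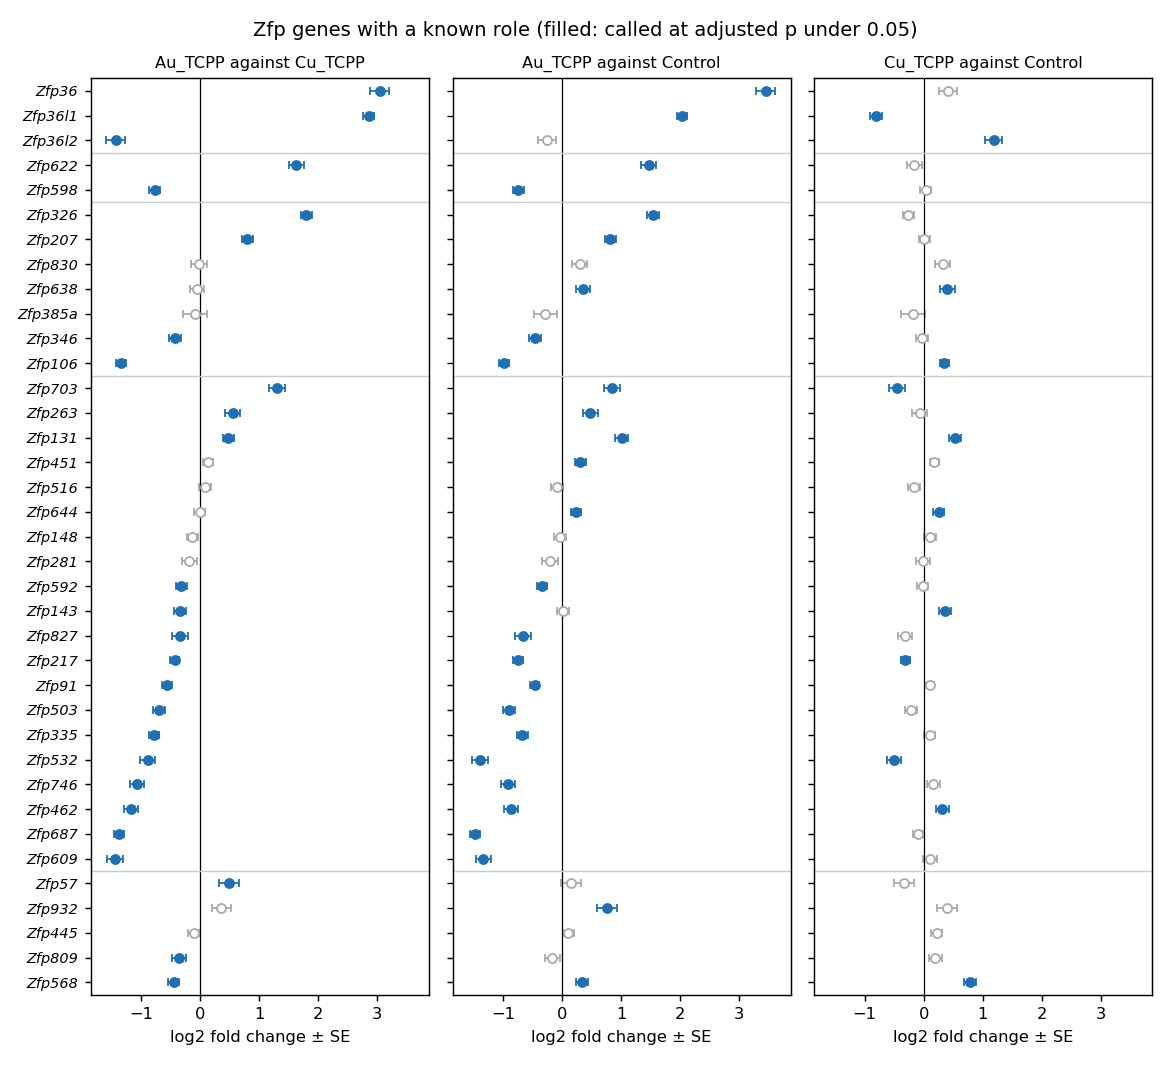
Log2 fold change with its SE (horizontal axis) of the 37 members with a listed role, by comparison; filled points were called and open points were not. Gene groups from top to bottom are AU-rich messenger RNA binders, ribosome and translation, RNA binding and spindle, promoter and chromatin regulators, and KRAB proteins with a described target. In Au_TCPP against Cu_TCPP, 12 of the 20 promoter and chromatin regulators lie to the left and are filled.

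Of the 5 KRAB members with a described silencing target, 1 rose and 2 fell in Au_TCPP against Cu_TCPP. Over all genes tested 34.6% rose and 31.3% fell. With offsets for gene length 1 of the 5 rose and 1 fell. Zfp57, which protects imprinted genes from losing methylation, stood at 22.9, 14.5 and 14.5 CPM in Au_TCPP, 13.7, 12.3 and 11 CPM in Cu_TCPP, and 15.7, 16.8 and 14.1 CPM in Control. The Au_TCPP libraries lay just above the Cu_TCPP libraries, at a log2 fold change of 0.49 ± 0.17 (edgeR adjusted p = 0.019), and overlapped Control; with library totals alone none of the 5 rose. Zfp57 was not called without Au_TCPP replicate 1 (0.20), Cu_TCPP replicate 2 (0.44) or Cu_TCPP replicate 3 (0.41). Zfp445, its partner at imprints, was at -0.11 ± 0.09 in Au_TCPP against Cu_TCPP and was not called. Zfp809, which silences a retrovirus in mouse embryonic cells, and Zfp568, which silences a placental Igf2 transcript, were lower by log2 fold changes of -0.36 ± 0.12 and -0.45 ± 0.1. With offsets for gene length Zfp568 was at -0.23 and not called.

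Among all 127 KRAB members 48 were higher and 35 lower in Au_TCPP than in Cu_TCPP, with a median log2 fold change of 0.07. Among the 115 without a KRAB match 32 were higher and 54 lower, with a median of -0.18. With library totals alone the counts were 29 and 57 for KRAB members and 18 and 77 for the others. With offsets for gene length the medians were 0.07 and -0.13. The shares called higher, 37.8% with KRAB and 27.8% without, lie on either side of the 34.6% of all genes tested, and the shares called lower, 27.6% with KRAB and 47% without, lie on either side of 31.3%. The difference between the classes was not tested.

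The partners through which KRAB proteins act were counted from a separate list. Of 19 genes of the corepressor complex and heterochromatin, 3 were higher and 10 lower in Au_TCPP against Cu_TCPP, where 34.6% and 31.3% of all genes tested were, with a median log2 fold change of -0.39. Library totals alone gave 1 and 16, and offsets for gene length 3 and 9 at a median of -0.15. Trim28, the corepressor itself, averaged 331 ± 18.1 CPM in Au_TCPP, 348 ± 13.9 CPM in Cu_TCPP and 325 ± 3.93 CPM in Control and was not called. Cbx5, a reader of methylated histones, averaged 116 ± 6.36 CPM in Au_TCPP, 379 ± 19.1 CPM in Cu_TCPP and 301 ± 16.8 CPM in Control. Setdb1, the histone methyltransferase, averaged 52.9 ± 2.68 CPM in Au_TCPP, 101 ± 3.08 CPM in Cu_TCPP and 100 ± 2.37 CPM in Control (SD, n = 3 each). The 3 called higher were Hdac2, Hdac1 and Cbx1, a paralogue of Cbx5. Their log2 fold changes were 0.79 ± 0.08, 0.31 ± 0.1 and 0.25 ± 0.08 (SE) in Au_TCPP against Cu_TCPP. Cbx3, another paralogue, was at 0.16 ± 0.07 and not called.

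By the size of the change, the members that rose most in Au_TCPP against Cu_TCPP after Zfp36 and Zfp36l1 were Zfp655, Zfp979 and Zfp326. Zfp655, a KRAB member, stood at 122, 120 and 125 CPM in Au_TCPP, 34.9, 29.4 and 33.1 CPM in Cu_TCPP, and 33.1, 27.4 and 27.4 CPM in Control. Zfp979 stood at 34.5, 22.8 and 48.9 CPM in Au_TCPP, 11.2, 9.07 and 8.91 CPM in Cu_TCPP, and 5.22, 4.31 and 4 CPM in Control. Its 3 groups stepped down without overlap, though 24.6% of its 50-base words recur in other genes.

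Those that fell most were Zfp512b, Zfp41, Zfp704, Zfp318 and Zfp236, none with a KRAB match. Zfp512b stood at 6.04, 10.2 and 5.2 CPM in Au_TCPP, 39.4, 46.2 and 39.4 CPM in Cu_TCPP, and 49.5, 45.9 and 48.1 CPM in Control, a log2 fold change of -2.54 ± 0.18 against Cu_TCPP (edgeR adjusted p = 1.9e-08). Zfp41 stood at 3.43, 2.11 and 1.5 CPM in Au_TCPP, 11.3, 11 and 10.6 CPM in Cu_TCPP, and 9.94, 9.43 and 11.1 CPM in Control. Zfp704, Zfp318 and Zfp236 had log2 fold changes of -1.78 ± 0.13, -1.68 ± 0.11 and -1.66 ± 0.11. In all of them the Au_TCPP libraries lay below the rest, and for the Cu_TCPP libraries the choice of these genes required it. Their lengths ran from 6810 to 15255 nt, against a median of 4978 nt for the members.

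Gene length moved with this comparison. The members up to 3000 nt had a median log2 fold change of 0.34 in Au_TCPP against Cu_TCPP, those of 3001 to 4500 nt 0.01, those of 4501 to 6500 nt 0.04, and the 77 members over 6500 nt -0.44. Over all genes tested the same classes gave 0.37, 0.04, -0.13 and -0.31. Spearman's rho between length and log2 fold change was -0.34 over the 242 members and -0.3 over all genes tested, as a description across genes that share libraries. The mean length of a counted gene was 4549 to 4669 nt in Au_TCPP, 5601 to 5720 nt in Cu_TCPP and 5632 to 5754 nt in Control, and its part in the results was not tested. Split by KRAB match, the medians with and without it were 0.47 (n = 26) and 0.08 (n = 16) up to 3000 nt, 0.42 (n = 37) and -0.40 (n = 20) from 3001 to 4500 nt, -0.14 (n = 35) and 0.14 (n = 31) from 4501 to 6500 nt, and -0.43 (n = 29) and -0.47 (n = 48) over 6500 nt. KRAB members thus stood higher in the shorter classes, lower from 4501 to 6500 nt and close to the others in the longest.

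**Figure D3:**
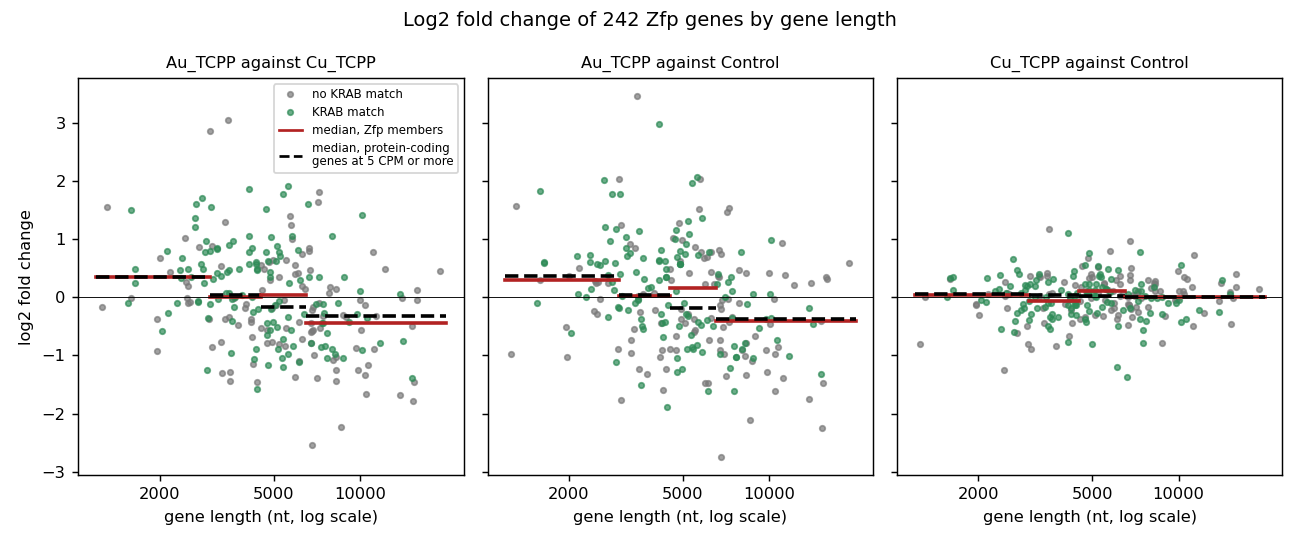
Log2 fold change of the 242 members against gene length (nt, log scale) in the 3 comparisons, with KRAB members in green and the others in grey; red lines are the members' medians in 4 length classes and dashed lines those of the 9925 protein-coding genes at 5 CPM or more in Control. In Au_TCPP against Cu_TCPP the members' median goes down to -0.44 in the longest class.

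The members were also grouped by position. Clusters were runs of Zfp genes with gaps of at most 500 kb that held at least 6 members, and the ones described were chosen after their values were seen. Over all genes tested 34.6% were higher and 31.3% lower in Au_TCPP against Cu_TCPP. In the cluster at chr17:21008903-23599487 (mm10, as are the others), whose 16 members all have a KRAB match, 10 were higher and 1 lower in Au_TCPP against Cu_TCPP, with a median log2 fold change of 0.57; library totals alone gave 6 higher and 2 lower, and leaving out Au_TCPP replicate 2 gave 8 and 1. With offsets for gene length 10 were higher and none lower, at the same median. Neighbours share sequence and could share reads, and the 16 are not independent of each other.

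Zfp948 stood at 73.5, 48.1 and 60.4 CPM in Au_TCPP, 27.4, 19.5 and 23.8 CPM in Cu_TCPP, and 15.4, 15.7 and 13.7 CPM in Control, stepping down without overlap. Zfp945 stood at 33.5, 37.3 and 46.4 CPM in Au_TCPP, 17.4, 12.2 and 14.2 CPM in Cu_TCPP, and 20.7, 20.1 and 18 CPM in Control, so here Cu_TCPP was the lowest. The divergent pair Zfp942 and Zfp943, whose shared promoter was shown, both rose: Zfp942 stood at 25.1, 27 and 24.4 CPM in Au_TCPP, 17.9, 13.1 and 15.7 CPM in Cu_TCPP, and 13.7, 11.2 and 11.3 CPM in Control. Zfp943 stood lower, at 6.56, 11.3 and 6.94 CPM in Au_TCPP, 6.23, 4.98 and 4.91 CPM in Cu_TCPP, and 4.66, 5.55 and 5.04 CPM in Control. Their log2 fold changes against Cu_TCPP were 0.71 ± 0.13 and 0.62 ± 0.21, and Zfp229 was the member that fell, at -0.51 ± 0.2.

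The cluster at chr6:47819266-48623227 went the other way, with none of its 7 members higher and 5 lower, a median of -0.79 and a range of -1.14 to -0.12; with offsets for gene length 6 were lower, at a median of -0.55, and with library totals alone all 7. It holds Zfp746. Zfp282, another of its members and a KRAB gene, stood at 10.2, 11.8 and 11.7 CPM in Au_TCPP, 20.8, 25 and 23.6 CPM in Cu_TCPP, and 23.4, 22.1 and 23.1 CPM in Control. A further chromosome 17 cluster, chr17:32771236-33631779, had 3 of 11 members higher and 5 lower, at a median of -0.28; offsets for gene length gave 2 and 4 at a median of -0.11, and library totals alone 0 and 6. On chromosome 7, the cluster at chr7:29768552-30169750, which holds Zfp420, Zfp568 and Zfp30, had 5 of 11 members higher and 1 lower, at a median of 0.01 and a range of -0.45 to 1.24; offsets for gene length gave 5 and 0, and library totals alone 2 and 6.

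**Figure D4:**
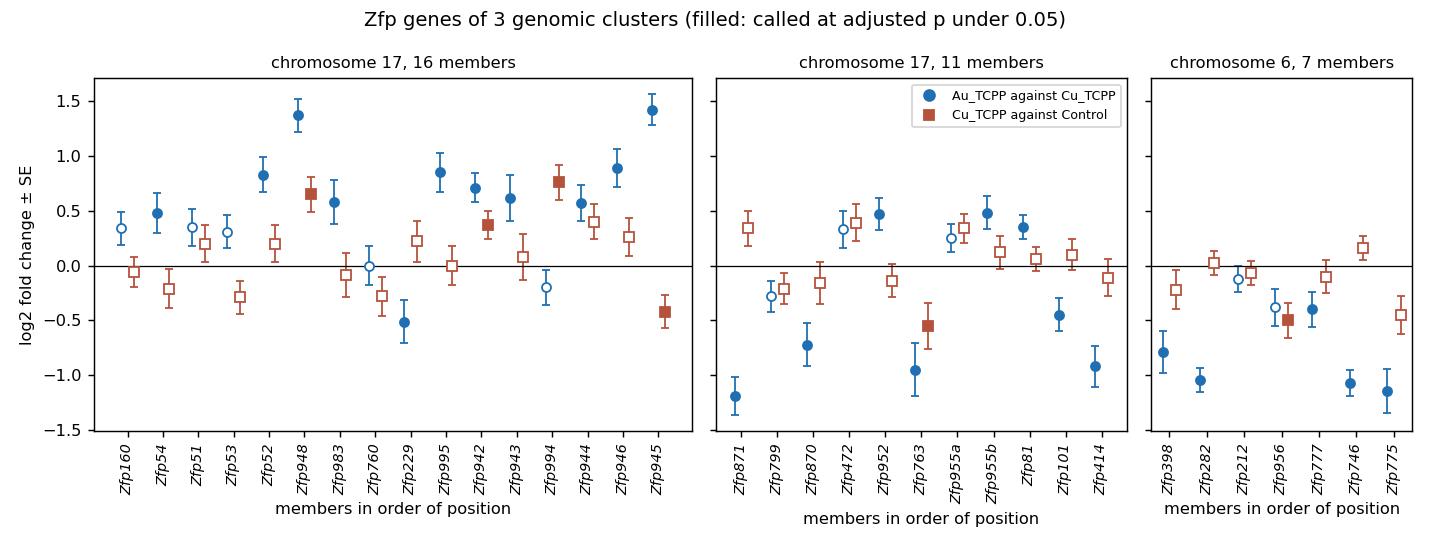
Log2 fold change ± SE of the members of 3 clusters, in order of position along the chromosome, for Au_TCPP against Cu_TCPP (circles) and Cu_TCPP against Control (squares); filled symbols were called. In the 16-member cluster 10 filled circles lie above 0, and in the chromosome 6 cluster 5 lie below it. Over all genes tested 34.6% were higher and 31.3% lower in Au_TCPP against Cu_TCPP.

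Set against Control, whose values chose the members, counts are given as a description. In Au_TCPP 93 members were higher (38.4%) and 89 lower (36.8%), where 34.4% and 34.7% of all genes tested were. Among protein-coding genes at 5 CPM or more in Control 36.2% were higher and 39.5% lower. At a log2 fold change of at least 1, 25 members were higher (10.3%) and 35 lower (14.5%). The shares were then 13.6% and 15.2% over all genes tested, and 10.8% and 13.7% among those protein-coding genes. The members' median log2 fold change was -0.03. The counts for Au_TCPP and for Cu_TCPP use the same Control libraries, so the 2 materials are not independent in them. Beside the genes above, Zfp251 and Zfp420 were among the most changed: Zfp420 stood at 25.2, 15.9 and 24.9 CPM in Au_TCPP, 9.69, 8.91 and 9.25 CPM in Cu_TCPP, and 6.11, 4.74 and 5.15 CPM in Control.

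In Cu_TCPP against Control 37 members were higher (15.3%) and 32 lower (13.2%), where 19.2% and 21.2% of all genes tested were. Among protein-coding genes at 5 CPM or more in Control 24.3% were higher and 22.7% lower. At a log2 fold change of at least 1, 2 members were higher (0.826%) and 3 lower (1.24%). The shares were then 1.56% and 6.68% over all genes tested, and 1.05% and 4.22% among those protein-coding genes. Counting changes of any size, 59 members were higher without Au_TCPP replicate 2, 24 without Cu_TCPP replicate 3 and 21 without Control replicate 3. Offsets for gene length gave 62 members higher, and 21 were lower without Cu_TCPP replicate 3. The members' median log2 fold change was 0.03. The largest rises were Zfp36l2, Zfp979, Zfp770, Zfp420 and Zfp568. Zfp770 stood at 31.8, 23.8 and 31.2 CPM in Cu_TCPP and 16.5, 13.4 and 14.3 CPM in Control, and Zfp568 at 33.6, 32.2 and 31 CPM in Cu_TCPP and 20.5, 16.9 and 18.8 CPM in Control.

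The largest falls were Zfp773, Zfp358, Zfp30, Zfp362 and Zfp839. Zfp773 stood at 1.76, 1.7 and 2.48 CPM in Cu_TCPP and 4.5, 5.66 and 5.2 CPM in Control, and Zfp358 at 9.46, 9.44 and 10.3 CPM in Cu_TCPP and 20, 23.4 and 26.2 CPM in Control. Zfp30, a KRAB gene, had a log2 fold change of -1.20 ± 0.21. In each of these the Cu_TCPP libraries lay below the Control libraries without overlap, which the choice of these genes required. Zfp773 met the selection limit at 5.71 CPM in Control, before TMM scaling, and the same libraries are compared here. Choice by Control level favours falls in a member so near the limit, so the fall of Zfp773 is a description. After TMM scaling Zfp773 and Zfp358 stood near Control in Au_TCPP and were not called against Control there. Their Au_TCPP values were 5.82, 6.69 and 5.52 CPM and 21, 20.5 and 17.4 CPM. For Zfp358 this nearness rests on the TMM factors, which were lower in Au_TCPP than in Control. With library totals alone every Au_TCPP library of Zfp358 lay below every Control library.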

How the data were processed

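Polyadenylated RNA of 9 libraries was sequenced (QIAseq FX Single Cell RNA Library Kit, HiSeq2000), per the labels' protocols, grouped by the sample titles. Named tools were HTSeq (no version), Cufflinks 2.1.1 and Bowtie 0.12.9, with mm10, per the submitters' processing notes. The deposited counts are reads per gene and library, per the file headers. The authors also deposited FPKM, per the file headers, used here for levels between genes. The authors' deposited log2 fold changes and p-value columns, per the file headers, were not used; nor were the deposited group means.

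Counts were tested with edgeR 4.0.16 (R 4.3.3; TMM, filterByExpr, robust quasi-likelihood fit of all 9 libraries, Benjamini-Hochberg over 13915 genes; called at adjusted p under 0.05). CPM are scaled by the TMM factors, except in the selection of members. KRAB domains were found with HMMER 3.4 (E-value under 1e-05) in translated GENCODE coding sequences, and C2H2 fingers by a pattern of cysteine and histidine spacing. The alternatives tried were no filter, library totals alone, RLE factors, 1 CPM in 3 libraries, DESeq2 1.42.0, the 6 libraries compared, a replicate block, offsets for gene length (splines with 5 degrees of freedom), other choices of members and leaving out each library; results for clusters and KRAB classes under them were added after seeing the data. Same-numbered libraries deviated from their group means with correlations between -0.0846 and 0.0897. These values show no pairing by number but cannot exclude it, and the labels do not say whether numbers pair libraries.

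Named members are all role-list members, the 5 largest rises and falls per comparison without overlap between groups, the 5 highest Control FPKM, the 3 on each side of the limit, and called genes of the partner lists; cluster members, Cnot7, Trim28 and other partner genes and those named for opposite directions were chosen after their values were seen. The members and lists were chosen with earlier results of these data known. In simulated data for 13915 genes, the fit recovered 77% of 2-fold and 54% of 1.5-fold changes for Au_TCPP against Cu_TCPP, 81% and 58% for Au_TCPP against Control, and 79% and 46% for Cu_TCPP against Control, with 12 of 143, 4 of 143 and 10 of 135 calls false. Few genes were changed there, as many up as down. In the real Au_TCPP against Cu_TCPP, 34.6% of all genes tested were called higher and 31.3% lower, so the simulated rates need not hold for it.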

Additional observations from a re-analysis of the deposited data

Results flagged for a closer look

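Of the members, 13 (5.37%) were called against Control in opposite directions with the 2 materials and called between them, as were 8.11% of all genes tested. Both calls use the same Control libraries, so they are not independent; the values below are log2 fold changes of Au_TCPP against Cu_TCPP, which test the difference itself without the Control means. Higher in Au_TCPP were Zfp36l1 (2.85), Zfp945 (1.42), Zfp703 (1.30), Zfp960 (1.21), Zfp949 (1.06) and Zfp821 (0.85). Lower in Au_TCPP were Zfp106 (-1.34), Zfp507 (-1.25), Zfp462 (-1.17), Zfp933 (-1.06), Zfp111 (-0.91), Zfp961 (-0.88) and Zfp653 (-0.77). Counts of Zfp960 and Zfp653 are uncertain, since 84.5% and 22.9% of their 50-base words recur in other genes. Those of Zfp36l1, Zfp507 and Zfp106 are uncertain too, since 55.9%, 28.3% and 26.1% of their exonic bases overlap other genes. Passing edgeR's adjusted p threshold in Au_TCPP against Cu_TCPP was a condition of being listed and is no further result.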

How the results depend on the processing

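With library totals alone, 47 members were higher and 134 lower in Au_TCPP against Cu_TCPP (median log2 fold change -0.44), 42 higher in Au_TCPP against Control (median -0.45), and the Cu_TCPP median was -0.02; the median of all genes tested then lay at -0.33, -0.43 and -0.06. Under that scaling Zfp451, Zfp568, Zfp638 and Zfp644 turned round in Au_TCPP against Control, to -0.12, -0.09, -0.07 and -0.18. Offsets for gene length gave medians of -0.03, 0.09 and 0.13 and 62 members higher in Cu_TCPP. No filter gave -0.16 and -0.08 for the Au_TCPP comparisons, and 1 CPM in 3 libraries gave -0.06 against Control. The 6 libraries alone gave -0.13 against Cu_TCPP and 60 members higher in Cu_TCPP against Control. Members chosen by all 9 libraries gave 0.02, and by 10 CPM -0.20, in Au_TCPP against Control. Leaving out each library, the medians ran from -0.14 to -0.07 (Au_TCPP against Cu_TCPP) and -0.13 to -0.02 (against Control), and in Cu_TCPP against Control 21 to 59 members were higher and 21 to 43 lower: 59 higher without Au_TCPP replicate 2, 24 higher and 21 lower without Cu_TCPP replicate 3, and 21 higher without Control replicate 3. The cause was not tested. The replicate block gave 80 higher and 89 lower in Au_TCPP against Cu_TCPP and 33 and 33 in Cu_TCPP against Control. Of 2805 values of named genes under the alternatives, 2650 kept their side of the threshold, 41 of these uncalled with another sign, 59 lost and 92 gained a call (8 of these with another sign), and 4 called values reversed. Members near 5 CPM rest on few reads.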
